A study of Mus musculus with 36 samples.

Results

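The genes examined were Mt1, Mt2, Mt3, Hmox1, Nqo1, Fth1, Ftl1, Slc7a11, Tfrc and Cp, which bind metals, handle iron and haem or act in redox defence. They were chosen by gene name and were 10 of the 53274 genes present in all 3 annotations used for counting. Gene-level RNA-seq counts were examined for 36 libraries of cerebellum (Cb) or of the rest of the brain, called forebrain/midbrain (F/M), taken at 1, 2 and 3 months of age, in 12 groups of 3 mice. Tpp1-/- mice, in which the gene for the lysosomal tripeptidyl peptidase was disrupted by gene targeting, are a model of CLN2, a childhood neurodegenerative disease with lysosomal storage. They were compared with unaffected siblings of the same age. At 2 and 3 months all control mice were wild type, and at 1 month control replicates 1 and 2 were wild type whereas control replicate 3 was Tpp1+/- in both regions. Each library was a piece of whole tissue, so that fewer cells of a type and less RNA per cell cannot be told apart in any value given here, and the p-values measure the spread between these mice only.

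Metallothioneins are small cysteine-rich proteins that bind zinc and copper. Mt1 and Mt2 are made in the brain mainly by astrocytes and are induced by zinc, through the factor MTF1, and by glucocorticoids, whereas Mt3 is the form enriched in brain. Iron enters cells through the transferrin receptor (Tfrc), is stored in ferritin, a shell of heavy (Fth1) and light (Ftl1) chains, and is oxidised for transport by ceruloplasmin (Cp). Hmox1, the inducible haem oxygenase, breaks down haem and frees its iron. Hmox1, the quinone reductase Nqo1 and the cystine importer Slc7a11 are classical targets of NRF2, the transcription factor of the oxidative stress response. When iron is scarce, iron regulatory proteins bind RNA hairpins called iron-responsive elements, block ferritin translation and stabilise the Tfrc mRNA, so that ferritin can change in protein without a change in its mRNA.

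In mouse build GRCm38, the 3 metallothionein genes lay side by side on the plus strand of chromosome 8, Mt3 at chr8:94152607-94154146, Mt2 at chr8:94172664-94173568 and Mt1 at chr8:94179082-94180327. Hmox1 (chr8:75093621-75100589, plus strand) and Nqo1 (chr8:107388225-107403206, minus strand) lay on the same chromosome. Fth1 was counted over chr19:9980598-9985098 at 1 month, with 3469 bases of exon, and over chr19:9982703-9985092 at 2 and 3 months, with 866 bases. Ftl1 lay at chr7:45457944-45459884 (minus strand), Slc7a11 at chr3:49892526-50443614 (minus strand), Tfrc at chr16:32608920-32632794 (plus strand) and Cp at chr3:19957054-20009145 (plus strand). All 10 are protein-coding genes, and every one passed the filter on low counts at each age. At 3 months the name Fth1 also matched another row, a processed pseudogene at chr8:86915157-86915514 with 0 to 1 counts per library, which was left out. Processed copies of ferritin were close to 0, with at most 8 counts in a library for Fth-ps2 and at most 2 for Ftl1-ps1, but reads shared with such copies may be missing from Fth1 and Ftl1 or split between them, since the file headers name fractional counting of multi-mapping reads while all deposited values are whole. Mt2 overlapped an antisense gene (Gm45774), Ftl1 an opposite-strand transcript (Gm10252) and a miRNA gene on its own strand (Gm22133), and Cp the opposite-strand gene Hps3. Slc7a11 overlapped Gm37692 and Gm37498 on its own strand and Gm37854, Gm37826 and Gm2345 on the other.

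The hairpin loop of the iron-responsive element was searched for in the transcripts of the ferritin chains and of Tfrc. The pattern was a C, then any 5 bases, then the loop CAGTGN, with N being A, C or T. The matches are shown because the iron genes differ in where they carry this pattern. The matched loop is in capitals, and each sequence is written 5′ to 3′ on the strand of the gene. Fth1 had a match in its 5′ UTR at chr19:9982733-9982755 and another in its 3′ UTR at chr19:9984974-9984996, and Ftl1 had its match in the 5′ UTR at chr7:45459784-45459806 (minus strand).
Fth1 5′ UTR: tcctgcttcaaCAGTGCttgaac
Fth1 3′ UTR: ggtcactgaggCAGTGCatgcat
Ftl1 5′ UTR: tcttgcttcaaCAGTGTttgaac
Tfrc had 5 matches in its 3′ UTR, at chr16:32631220-32631242, chr16:32631599-32631621, chr16:32631646-32631668, chr16:32631664-32631686 and chr16:32631711-32631733, of which the third and the fourth overlapped.
Tfrc 3′ UTR, a: attatcggaagCAGTGCcttcca
Tfrc 3′ UTR, b: attatcgggagCAGTGTcttcca
Tfrc 3′ UTR, c: tttgcctaccaCAGTGTctatat
Tfrc 3′ UTR, d: tatatcggagaCAGTGAtctcca
Tfrc 3′ UTR, e: attatcgggaaCAGTGTttccca
Of 58695 protein-coding transcripts, 4.24% held such a match in their first 150 bases. Of 32076 transcripts, 41.3% held at least 1 match in their last 1600 bases and 0.156% held at least 5. A match of these letters is a description and not a tested site.

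The promoters of Mt2 and Mt1 are shown because these neighbours moved together across libraries, as given further on. They are the 250 bases before the RefSeq start of each gene in GRCm38.p6, both on the plus strand, at chr8:94172368-94172617 for Mt2 and chr8:94178839-94179088 for Mt1. Other annotated transcripts start further downstream, at chr8:94179211 and chr8:94179241 for Mt1 and at chr8:94172860 for Mt2. The bases just before those starts were not searched, so the cores given below are not all that either gene may hold. Capitals mark the core of the metal response element, the site of MTF1, searched for as TGCACNC or TGCGCNC on both strands.
Mt2 promoter: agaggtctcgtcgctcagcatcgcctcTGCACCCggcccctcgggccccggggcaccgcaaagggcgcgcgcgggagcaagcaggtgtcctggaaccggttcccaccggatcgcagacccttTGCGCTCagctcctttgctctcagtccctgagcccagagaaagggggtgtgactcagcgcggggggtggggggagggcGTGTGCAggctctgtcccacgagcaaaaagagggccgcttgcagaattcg
Mt1 promoter: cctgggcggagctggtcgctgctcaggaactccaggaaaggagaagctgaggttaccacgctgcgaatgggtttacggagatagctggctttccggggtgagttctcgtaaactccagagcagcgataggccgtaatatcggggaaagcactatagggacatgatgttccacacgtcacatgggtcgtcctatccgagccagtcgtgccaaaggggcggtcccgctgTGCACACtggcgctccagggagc
With the 50 bases after the start included, Mt2 held 4 such cores and Mt1 held 3. Mt3 held 1, 1 of the Tfrc windows held 2 overlapping cores, and the windows of the other members held none. The core occurred in 25.7% of the 32851 promoter windows of the same length. The core of the antioxidant response element (TGAC, then NNN for any 3 bases, then GC, on either strand) occurred in 12.4% of them and, among the members, only in Mt2, as TGACTCAGC at position -79 from the start. A window was present for 9 of the 10 members, all but Hmox1.

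Total counts ranged from 10609896 to 29942380 per library, with a median of 21049839, and the 10 members were fitted with 17916, 17229 and 17224 tested genes at 1, 2 and 3 months. A gene was called changed where edgeR's quasi-likelihood test gave an adjusted p under 0.1 and the fold was at least 1.5. In tests of a difference between 2 effects, that is between regions or between ages, the adjusted p alone made the call, with no fold minimum. Tpp1 itself was lower in every Tpp1-/- library (16.1 to 27.8 CPM, counts scaled to each library's size and composition by TMM) than in every control of any age (42.1 to 110.8 CPM), and the 2 Tpp1+/- libraries, with 46.6 CPM (F/M) and 55.9 CPM (Cb), lay below the wild-type libraries of their groups. Cerebellar marker genes summed to 7383 to 10010 CPM in Cb and 297.0 to 382 CPM in F/M, and forebrain markers to 575 to 740 CPM in F/M and 105 to 161 CPM in Cb. The list named midbrain and thalamus went against its name, at 1023 to 1228 CPM in Cb and 415 to 605 CPM in F/M. A score from that list therefore cannot be read in Cb as a measure of midbrain or thalamus. All 24 libraries of 1 and 2 months expressed Y-linked genes and all 12 libraries of 3 months expressed Xist, which went against the sex label of 12 libraries. Age, expressed sex and the set in which libraries were counted therefore cannot be told apart in any statement across ages. The Cb Tpp1-/- replicates 1 of 3 months and of 1 month stood apart in that short transcripts were raised against long ones. Median log2 CPM of genes of at most 800 bases minus that of genes over 6000 bases, relative to the 6 libraries of the same region and age, was 0.866 and 0.593 in these libraries, against -0.399 to 0.356 in the other 34.

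Per length, ferritin heavy chain had the highest mean of the 10 mRNAs in 5 of the 6 control groups, and in Cb at 1 month Mt2 did. In F/M controls Fth1 reached 1255 ± 122 RPKM (CPM per kilobase of exon, SD, n = 3) at 2 months and 1377 ± 131 RPKM at 3 months, and in Cb controls 1090 ± 47.7 and 1170 ± 155 RPKM. At 1 month, when counts were divided by the longer annotated exon length, it was 243 ± 17.99 and 181 ± 17.5 RPKM. The order of Mt2 and Fth1 in Cb at 1 month depends on that length, as their mean levels were 133 and 628 CPM. The metallothioneins ranged from 70.8 ± 4.51 RPKM for Mt3 in Cb at 1 month to 292 ± 7.76 RPKM for Mt2 in Cb at 2 months, and were next after Fth1 except in Cb at 1 month, where Mt2 (226 ± 95.8 RPKM) stood above Fth1 and overlapped it. In Cb, Mt2 was ahead of Mt1 and Mt3 at each age, and at 2 months the 3 did not overlap. In F/M, Mt3 and Mt2 overlapped at 1 and 2 months, and at 3 months Mt3 (155 ± 12.7 RPKM) lay above Mt2 (111 ± 7.54 RPKM), which lay above Mt1 (84.7 ± 6.88 RPKM). Tfrc followed at 28.5 to 33.7 RPKM and Ftl1 at 10.9 to 13.4 RPKM, without overlap with their neighbours. Slc7a11, Nqo1, Cp and Hmox1 filled the last places at 1.78 to 6.30 RPKM. Hmox1 was lowest in 5 of the 6 control groups, and in 3 of these it did not overlap the next gene.

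**Figure D1:**
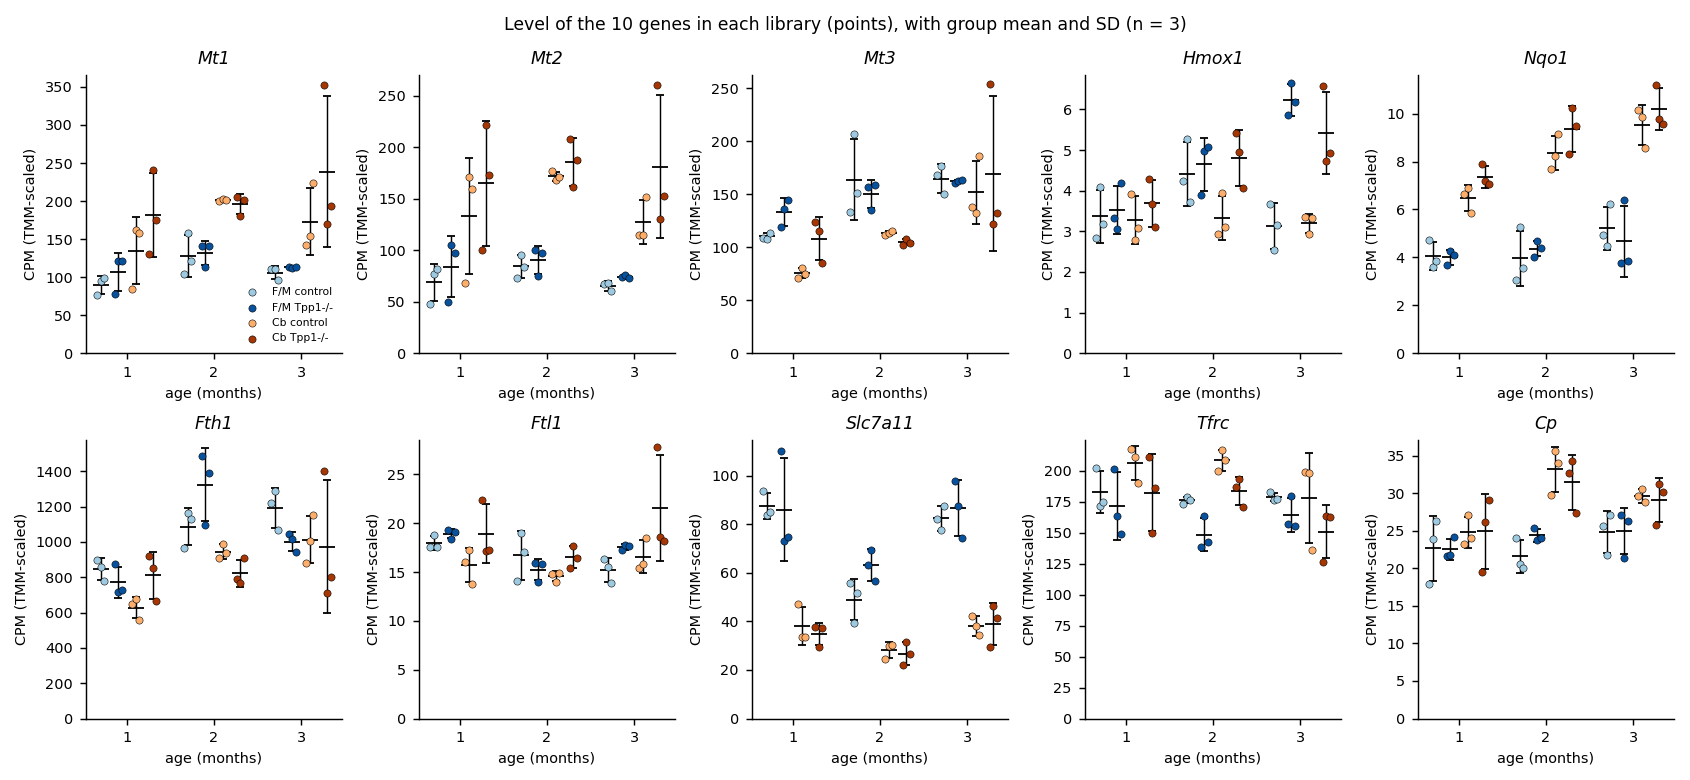
CPM of each of the 10 members on a linear axis in all 36 libraries, by region and age, with control and Tpp1-/- libraries as separate points. Hmox1 shows the Tpp1-/- libraries above the controls at 3 months in both regions, while most other members overlap.

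Of the 10 members, Hmox1 alone was called in Tpp1-/- brain, higher in both regions at 3 months. At 1 month 0 of the 10 members were called in F/M and 0 in Cb, where 0.0112% and 0.0112% of all tested genes were called. Likewise, at 2 months 0 were called in either region, against 0.737% of genes in F/M and 2.05% of those in Cb. Hmox1 was called at 3 months in both regions, 1 of 10 in each, against 0.464% and 0.859% of genes. DESeq2 and limma-voom also called 0 members at 1 and 2 months. At an unadjusted p under 0.05, edgeR listed in F/M 1, 3 and 1 members at 1, 2 and 3 months, against 1.89%, 16.9% and 5.94% of all tested genes, and in Cb 3, 2 and 3 members, against 7.66%, 9.67% and 6.49%. The median log2 fold change of the 10 members lay between -0.06 and 0.23 over the 6 comparisons, and that of all tested genes between -0.004 and 0.006.

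More members separated without overlap than were called. At 1 month 1 member did not overlap between groups in F/M (Mt3, higher) and 2 did not in Cb (Mt3 and Nqo1, higher), against 14.8% and 7.97% of all tested genes. At 2 months there were 2 in F/M (Slc7a11 higher, Tfrc lower) and 5 in Cb (Hmox1 and Ftl1 higher, Mt3, Fth1 and Tfrc lower), against 18.3% and 18.1%. At 3 months there were 5 in F/M (Mt1, Mt2, Hmox1 and Ftl1 higher, Fth1 lower) and 1 in Cb (Hmox1), against 24.1% and 8.67%. With 10 members the counts of 5 stood above the shares of all genes, and the counts of 1 or 2 lay near them.

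**Figure D2:**
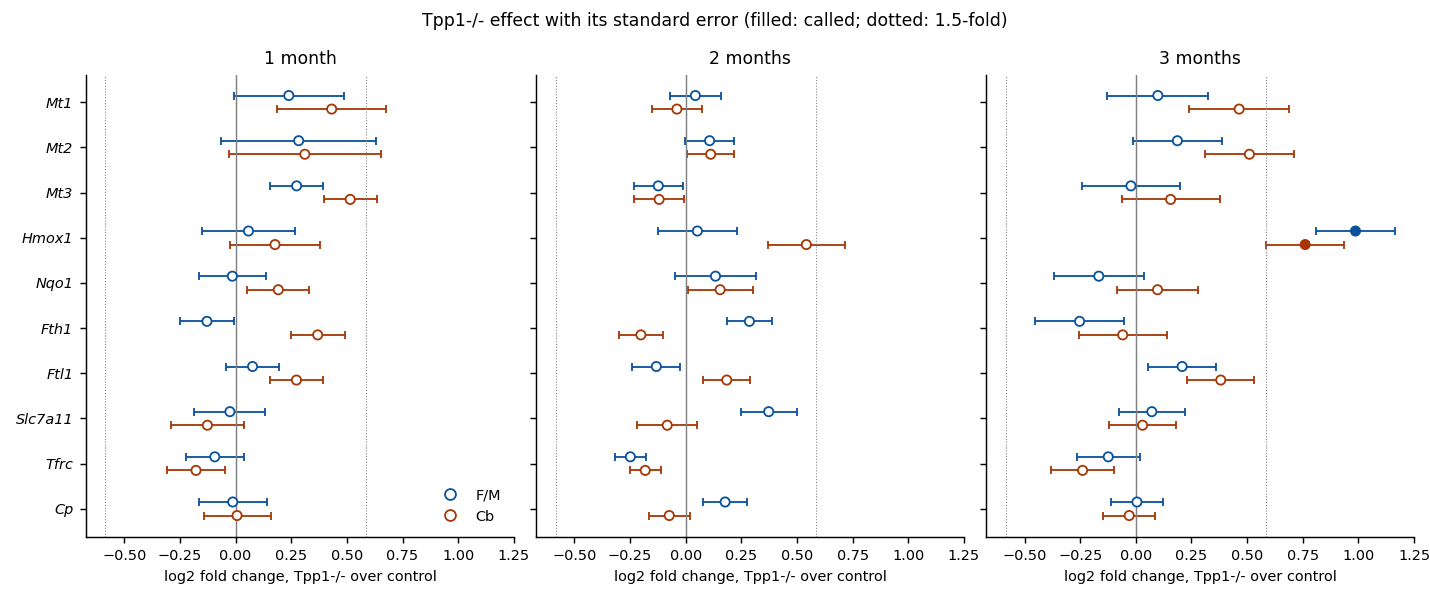
Log2 fold change of each member in Tpp1-/- against control mice, with edgeR standard errors as bars, for both regions at 1, 2 and 3 months. The 95% intervals of Hmox1 at 3 months, wider than the bars, lie between 0.64 and 1.33 in F/M and between 0.42 and 1.10 in Cb. Those of most other members cross 0.

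Hmox1 was a low-abundance mRNA in control brain at every age. In F/M at 3 months it was at 3.67, 2.55 and 3.15 CPM in control replicates 1 to 3 and at 5.87, 6.65 and 6.17 CPM in Tpp1-/- replicates 1 to 3, from 41 to 72 counts against 120 counts or more. In Cb at 3 months it was at 3.34, 2.94 and 3.33 CPM in controls and at 6.58, 4.74 and 4.93 CPM in Tpp1-/- mice. The groups were clear of each other in both regions, and the control levels of the regions overlapped. The mean went from 3.12 ± 0.561 to 6.23 ± 0.396 CPM in F/M (SD, n = 3), a log2 fold change of 0.99 ± 0.18 (SE, edgeR adjusted p = 0.0285), which is 1.98-fold. In Cb it went from 3.20 ± 0.230 to 5.42 ± 1.01 CPM, a log2 fold change of 0.76 ± 0.17 (edgeR adjusted p = 0.0768), or 1.69-fold. Without any 1 of the 12 libraries of this age, the log2 fold change stayed between 0.86 and 1.11 in F/M and between 0.60 and 0.85 in Cb. The Cb call stood close to its threshold and was lost with the replicate number as a block (adjusted p = 0.197), with the sex label as a covariate (0.108), with the 6 Cb libraries fitted alone (0.498) and on leaving out any of 8 libraries, with adjusted p from 0.107 without Cb control replicate 3 to 0.335 without Cb control replicate 2. The others of the 8 were Cb control replicate 1, Cb Tpp1-/- replicate 3, all 3 F/M Tpp1-/- replicates and F/M control replicate 3. The F/M call was lost without F/M control replicate 2 (adjusted p = 0.186), F/M control replicate 3 (0.119) or F/M Tpp1-/- replicate 2 (0.153).

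At 2 months Hmox1 was already above controls in each Cb Tpp1-/- library, at 5.42, 4.95 and 4.06 CPM against 2.93, 3.93 and 3.10 CPM, but the difference did not pass the test (log2 fold change 0.54 ± 0.17, edgeR adjusted p = 0.158). In F/M at 2 months the groups overlapped, at 4.23, 5.26 and 3.72 CPM in controls and 3.89, 4.99 and 5.07 CPM in Tpp1-/- mice. At 1 month Hmox1 was at 2.83 to 4.10 CPM in F/M controls and 3.06 to 4.20 CPM in F/M Tpp1-/- mice, and at 2.79 to 3.93 against 3.12 to 4.28 CPM in Cb. These groups overlapped, with log2 fold changes of 0.06 ± 0.21 and 0.18 ± 0.20. The effect of genotype at 3 months minus that at 2 months was 0.93 ± 0.27 in F/M (edgeR adjusted p = 0.189) and 0.22 ± 0.26 in Cb (adjusted p = 0.985). With a correction for transcript length, given further on and chosen after the data had been seen, the F/M difference was called, at 0.94 ± 0.24 (adjusted p = 0.0811). A growth of the effect with age was therefore not shown without that correction, nor was a difference between the regions at 3 months (Cb minus F/M -0.23 ± 0.25, 95% interval -0.71 to 0.26).

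Markers of microglia, the resident macrophages of the brain, moved with Hmox1 at 3 months. Their 14 markers summed to 538 to 573 CPM in F/M controls and 726 to 802 CPM in F/M Tpp1-/- mice, and to 193 to 238 against 413 to 642 CPM in Cb, with none of the 14 at 0. At 2 months in Cb, where Hmox1 was also higher in each library, the microglial sum was 192 to 235 CPM in controls and 210.2 to 213 CPM in Tpp1-/- mice, within the control range. Choroid plexus markers, in contrast, were clear of each other in these libraries, at 1312, 1013 and 1125 CPM in controls and 1832, 1651 and 1776 CPM in Tpp1-/- mice. With the choroid plexus score or the midbrain and thalamus score in the fit the Hmox1 value there was 1.22 ± 0.94 or 1.41 ± 0.64, with much larger errors. At 3 months astrocyte markers were also higher without overlap, at 7237 to 7381 against 7448 to 8042 CPM in F/M and 6403 to 6575 against 7000 to 7156 CPM in Cb, and ependymal markers in Cb were at 49.3 to 52.3 against 53.0 to 54.2 CPM. Lower without overlap in F/M were the markers of red blood cells (316 to 325 against 249 to 290.0 CPM), of oligodendrocytes (6738 to 6998 against 5671 to 6309 CPM) and of cerebellum (352 to 382 against 309.8 to 344 CPM). The midbrain and thalamus marker sum also differed in F/M at 3 months, at 584 to 605 against 440.3 to 504 CPM. With that marker score as a covariate the Hmox1 log2 fold change in F/M was 1.09 ± 0.37 and was no longer called (edgeR adjusted p = 1.0). With the choroid plexus score the F/M value was 1.02 ± 0.21 and fell just short of a call (edgeR adjusted p = 0.1003), and in Cb the call held with either score. The part of the other markers in the rise of Hmox1 was not tested.

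No metallothionein was called in Tpp1-/- brain at any age. In F/M at 3 months Mt1 was at 110.7, 110.2 and 95.6 CPM in controls and 114, 113 and 113 CPM in Tpp1-/- mice, and Mt2 was at 67.5, 68.1 and 60.1 against 73.7, 76.2 and 72.8 CPM. Both pairs of groups were just clear of each other, but the log2 fold changes of 0.10 ± 0.23 and 0.19 ± 0.20 did not exceed their errors. The part in them of the astrocyte markers, which were higher at this age as given above, was not tested. In Cb at 3 months Mt1 was at 142, 154 and 223 CPM in controls and 353, 170.0 and 194 CPM in Tpp1-/- mice, and Mt2 at 114, 115 and 152 against 259.9, 130 and 153 CPM. A single library, Tpp1-/- replicate 1 with the raised short transcripts, held both highest values. With it the log2 fold changes were 0.46 ± 0.23 for Mt1 and 0.51 ± 0.20 for Mt2 (edgeR adjusted p = 0.780 and 0.618), and without it 0.07 ± 0.14 and 0.16 ± 0.11.

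At 1 month both genes varied widely between mice of the same group. In Cb Mt2 was at 68.0, 171 and 160 CPM in controls and 100.4, 222 and 173 CPM in Tpp1-/- mice, and in F/M at 48.1, 77.2 and 81.4 against 50.2, 104.9 and 97.0 CPM. Replicate 1 was the lowest of its group in all 4 groups of this age, for Mt1 as well. The log2 fold changes at 1 month were 0.24 ± 0.25 and 0.28 ± 0.35 in F/M and 0.43 ± 0.24 and 0.31 ± 0.34 in Cb, for Mt1 and Mt2. Without the length-shifted Cb Tpp1-/- replicate 1, the Cb values were 0.62 ± 0.23 and 0.57 ± 0.32, neither of them called. At 2 months the log2 fold changes lay between -0.04 and 0.11 in both regions, and Cb controls were nearly level for Mt1 at 200.5, 203 and 200.8 CPM.

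Mt3 showed no steady direction. At 1 month it was at 109, 107 and 114 CPM in F/M controls against 119, 136 and 145 CPM in Tpp1-/- mice, and in Cb at 71.0, 80.6 and 74.7 against 123.4, 115 and 84.8 CPM. All 6 Tpp1-/- libraries lay above the controls of their region, with log2 fold changes of 0.27 ± 0.12 in F/M (edgeR adjusted p = 1.0) and 0.51 ± 0.12 in Cb (adjusted p = 0.630). The short minus long measure also separated the F/M groups of this age, at -0.057, -0.071 and -0.104 in controls and 0.09, 0.045 and 0.106 in Tpp1-/- libraries, and with the length correction the F/M value was 0.22 ± 0.09. Microglial markers separated them too, at 472 to 505 against 516 to 560 CPM in F/M and 173 to 213 against 222 to 247 CPM in Cb. So did neuron markers (7545 to 7578 against 7702 to 8070 CPM) and red blood cell markers (382 to 407 against 419 to 477 CPM) in F/M and meningeal fibroblast markers in Cb (108 to 130.4 against 137 to 157 CPM). The highest Mt3 value in Cb, 123.4 CPM, was in Cb Tpp1-/- replicate 1, which carried the length shift, and with the length correction the Cb value was 0.37 ± 0.09. Without Cb Tpp1-/- replicate 1 the Cb value was 0.40 ± 0.11 and was not called (edgeR adjusted p = 0.585). Without Cb Tpp1-/- replicate 3 it was 0.67 ± 0.09 and passed the test (adjusted p = 0.0108), a setting in which 1.49% of all genes were called, against 0.0112% with all libraries. At 2 months in Cb the order was turned, at 112, 113 and 116 CPM in controls and 102, 108 and 104 CPM in Tpp1-/- mice, with a log2 fold change of -0.12 ± 0.11 (adjusted p = 0.855). At 3 months the groups overlapped in both regions, and Cb Tpp1-/- replicate 1 again stood highest, at 254 CPM against 122 and 132 CPM in the other two.

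The effect on the ferritin heavy chain had opposite signs in the regions at 2 months. In F/M Fth1 was at 967, 1166 and 1127 CPM in controls and 1489, 1096 and 1390 CPM in Tpp1-/- mice, with overlap through replicate 2. In Cb it was at 908, 989 and 936 CPM in controls and 789, 769 and 907 CPM in Tpp1-/- mice, just without overlap. Neither effect was called, as the log2 fold change was 0.29 ± 0.10 in F/M (edgeR adjusted p = 0.157) and -0.20 ± 0.10 in Cb (edgeR adjusted p = 0.542). Both signs turned once a marker score entered the fit, to -0.04 ± 0.11 in F/M and 0.21 ± 0.52 in Cb with that of choroid plexus and to -0.11 ± 0.14 and 0.12 ± 0.37 with that of midbrain and thalamus. Astrocyte markers in F/M (5094 to 6015 against 6335 to 7862 CPM) and choroid plexus markers in Cb (1013 to 1312 against 1651 to 1832 CPM) separated the same groups without overlap. Other marker lists that separated the F/M groups are given with Tfrc further on. The difference between the effects, -0.49 ± 0.14, passed its test at an adjusted p of 0.0941 (1.40-fold), the only member to do so, so that 1 of 10 members was called in this test against 2.97% of all genes. It passed on leaving out any of 3 libraries, and with any of the other 9 left out its adjusted p was 0.113 to 0.268 and the difference -0.39 to -0.52. The 3 were Cb Tpp1-/- replicate 3, F/M Tpp1-/- replicate 2 and F/M control replicate 2. At 1 month 0 of 10 members were called in the test between regions, against 0.00% of genes, and at 3 months 0 were called, against 0.00581%. At an unadjusted p under 0.05 edgeR listed 1, 3 and 0 members at 1, 2 and 3 months, against 1.94%, 11.5% and 3.51% of genes. DESeq2 also called 0 members in both of these tests.

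At 1 month the direction in Cb was the other way, as Fth1 was at 649, 676 and 560 CPM in controls and 918, 853 and 663 CPM in Tpp1-/- mice (log2 fold change 0.37 ± 0.12, edgeR adjusted p = 0.630). In F/M it was at 776 to 899 against 718 to 872 CPM. At 3 months in F/M all Tpp1-/- libraries were lower, at 1044, 1017 and 941 CPM against 1221, 1290 and 1068 CPM, with a log2 fold change of -0.25 ± 0.20. Oligodendrocyte markers were lower in the same libraries without overlap, at 6738 to 6998 CPM in controls and 5671 to 6309 CPM in Tpp1-/- mice, and their part was not tested. In Cb at 3 months Fth1 was at 883, 1005 and 1152 CPM in controls and 1404, 709.6 and 804 CPM in Tpp1-/- mice. The value of replicate 1 again lay far above the other two, and without it the log2 fold change went from -0.06 ± 0.20 to -0.42 ± 0.11, with an adjusted p of 0.0834 and 0.748 of the control level, short of the fold minimum.

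The ferritin light chain was not called at any age, with levels from 13.8 to 27.8 CPM. Ftl1 was at 16.3, 15.5 and 13.9 CPM in F/M controls of 3 months and 17.3, 17.7 and 17.7 CPM in Tpp1-/- mice, and in Cb at 15.4, 15.8 and 18.5 against 27.8, 18.6 and 18.2 CPM. The log2 fold changes were 0.21 ± 0.15 and 0.38 ± 0.15 (edgeR adjusted p = 1.0 and 0.631), and the Cb value was 0.15 ± 0.10 without replicate 1. At 2 months in Cb Ftl1 was at 14.8, 14.0 and 14.9 CPM against 15.5, 17.7 and 16.5 CPM (log2 fold change 0.18 ± 0.10, adjusted p = 0.637), and thus higher where Fth1 was lower. In F/M at 2 months the sign was the reverse (-0.13 ± 0.11), with overlap.

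Tfrc, the importer of transferrin-bound iron, was lower in the Tpp1-/- libraries of 2 months in both regions. In F/M it was at 173, 179 and 177 CPM in controls and 139, 164 and 143 CPM in Tpp1-/- mice, and in Cb at 199.5, 217 and 209 against 187, 193 and 171 CPM. All 6 Tpp1-/- libraries lay below the controls of their region. The log2 fold change was -0.25 ± 0.07 in F/M (edgeR adjusted p = 0.0897), past the p threshold but at 0.842 of control and so under the fold minimum, and -0.18 ± 0.07 in Cb (adjusted p = 0.314). In these F/M groups the midbrain and thalamus markers (415 to 497 against 525 to 567 CPM) and the forebrain markers (693 to 736 against 637 to 666 CPM) also separated without overlap, as did astrocyte markers in F/M and choroid plexus markers in Cb. Markers of pericytes and mural cells (268 to 285 against 288 to 352 CPM) and of ependyma (16.4 to 24.4 against 26.3 to 28.2 CPM) separated in F/M too. With the midbrain and thalamus score in the fit the F/M value was -0.17 ± 0.12 (adjusted p = 0.476), and with the choroid plexus score -0.19 ± 0.09 (adjusted p = 0.230). At 1 and 3 months the signs were also negative in both regions, from -0.09 to -0.24, with overlap between the groups in all 4. Without the length-shifted Cb Tpp1-/- replicate 1 of the same age, the Cb value was -0.31 ± 0.12 at 1 month and -0.12 ± 0.13 at 3 months. The mean in controls was 176 ± 2.77 and 208 ± 8.67 CPM at 2 months, and among the control groups the spread was smallest in these and in F/M controls of 3 months (179 ± 3.42 CPM).

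Cp, the copper-bearing ferroxidase, gave the flattest profile. Its log2 fold change lay between -0.07 and 0.18 in all 6 comparisons, and its groups overlapped in each. In F/M it ranged from 17.9 to 27.1 CPM and in Cb from 19.5 to 35.6 CPM over all ages and both genotypes.

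Of the redox genes other than Hmox1, Slc7a11 was higher in F/M at 2 months. It was at 55.7, 39.6 and 51.6 CPM in controls and 63.4, 69.6 and 56.5 CPM in Tpp1-/- mice, without overlap but with neighbours less than 1 CPM apart, and the log2 fold change of 0.37 ± 0.13 was not called (edgeR adjusted p = 0.148). In the same libraries choroid plexus markers (13 genes, none at 0) summed to 252, 645 and 397 CPM in controls and 749, 554 and 671 CPM in Tpp1-/- mice, and astrocyte markers (12 genes, none at 0) to 5094 to 6015 against 6335 to 7862 CPM. Once the choroid plexus score entered the fit, Slc7a11 was called, at 0.71 ± 0.16 (adjusted p = 0.0121), while the share of all genes called went from 0.737% to 3.51%. The part in this value of astrocytes, and of the other markers given with Tfrc that separated these groups, was not tested. In Cb at 2 months Slc7a11 was at 24.5, 29.7 and 30.3 CPM against 22.2, 31.6 and 26.5 CPM, and the difference between the regions was -0.46 ± 0.18 (adjusted p = 0.310). At 1 and 3 months its log2 fold changes with all libraries lay between -0.13 and 0.07, with overlap.

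Nqo1 was at 3.06 to 6.38 CPM in F/M and 5.87 to 11.2 CPM in Cb. The groups were clear of each other only in Cb at 1 month, at 6.64, 6.89 and 5.87 CPM in controls and 7.89, 7.17 and 7.05 CPM in Tpp1-/- mice, with a log2 fold change of 0.19 ± 0.14 (edgeR adjusted p = 0.706). Its other log2 fold changes lay between -0.17 and 0.15. At 3 months, when Hmox1 was raised, Nqo1 stood at -0.17 ± 0.20 in F/M and 0.10 ± 0.18 in Cb, and Slc7a11 at 0.07 ± 0.15 and 0.03 ± 0.15. The 95% intervals of Nqo1 reached from -0.56 to 0.23 and from -0.26 to 0.46, and no test between the genes was run. Without the length-shifted Cb Tpp1-/- replicate 1 of 3 months, Nqo1 in Cb was at 0.02 ± 0.19 and Slc7a11 at 0.20 ± 0.12, neither of them called.

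The effect of genotype was also compared between ages, with 18322 genes in 1 model of all 36 libraries. For 3 months minus 2 months 0 of 10 members were called in F/M, against 0.393% of genes, and 0 in Cb, against 1.44%. For 3 months minus 1 month 0 were called in F/M, against 0.153%, and 0 in Cb, against 0.458%. By edgeR 2, 0, 1 and 1 members had an unadjusted p under 0.05 in these 4 tests, against 8.12%, 6.41%, 5.41% and 7.91% of genes, and DESeq2 called 0 in each. Hmox1 in F/M was the nearest to a call in both F/M tests, with a rise of 0.94 ± 0.27 from 1 to 3 months (edgeR adjusted p = 0.350). In Cb from 1 to 3 months Mt3 and Fth1 passed without the shifted Tpp1-/- replicate 1 of 3 months, at -0.78 ± 0.19 (adjusted p = 0.0270) and -0.80 ± 0.18 (adjusted p = 0.0181), against -0.36 ± 0.25 and -0.43 ± 0.23 with it. Of all genes, 8.52% were called without that library, against 0.458% with it.

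**Figure D3:**
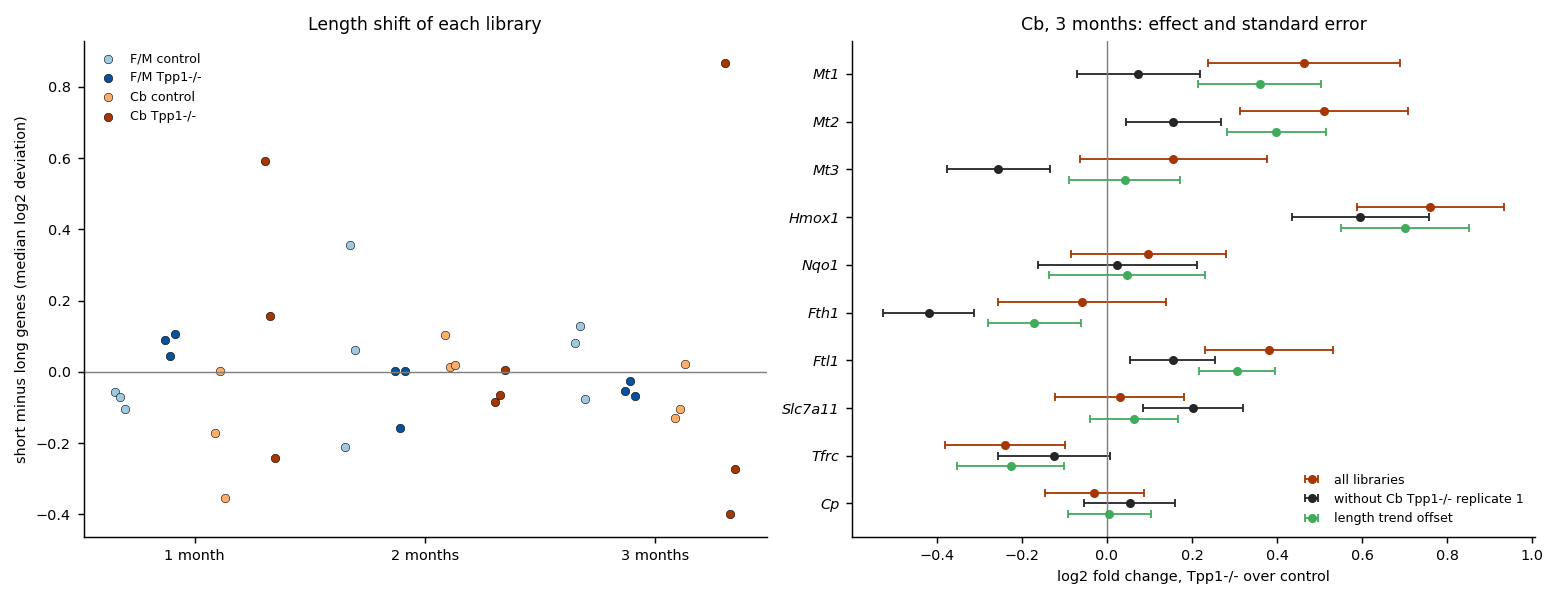
For each library, the median log2 CPM of short genes minus that of long genes, relative to the libraries of the same region and age, and the members' cerebellar log2 fold changes at 3 months with all libraries, without Tpp1-/- replicate 1 and with a length correction. Replicate 1 at 3 months stands at 0.866, and the values of Mt1 and Mt2 fall from 0.46 and 0.51 to 0.07 and 0.16 without it, while Hmox1 goes from 0.76 to 0.60.

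A correction for transcript length in each library, chosen after the data had been seen, gave values between those with and without this library for Mt1, Mt2, Ftl1 and Hmox1. At 3 months in Cb Mt1 was at 0.36 ± 0.14, Mt2 at 0.40 ± 0.12 and Ftl1 at 0.31 ± 0.09 on the log2 scale, none of them called. Hmox1 was at 0.70 ± 0.15 and was called (edgeR adjusted p = 0.0412). Leaving the library out, Hmox1 in Cb was at 0.60 ± 0.16 and still called (adjusted p = 0.0962), at 1.51-fold.

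Between the regions, in control mice, the members differed more than between genotypes. At 1 month 3 of 10 were called, at 2 months 5 and at 3 months 4, against 36.9%, 39.3% and 37.7% of all genes, so that the members' counts lay near the shares of all genes. Mt2, Nqo1 and Slc7a11 were called at all 3 ages, Mt1 at 2 and 3 months and Cp at 2 months. These ages were separate sets of mice.

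Mt1 and Mt2 were higher in Cb. At 2 months Mt2 was at 73.5, 95.5 and 83.9 CPM in F/M, against 177, 168 and 171 CPM in Cb, and at 3 months at 67.5, 68.1 and 60.1 against 114, 115 and 152 CPM. The Cb minus F/M difference of Mt2 was 0.94 ± 0.35, 1.03 ± 0.11 and 0.96 ± 0.20 on the log2 scale at 1, 2 and 3 months (edgeR adjusted p = 0.0322, 1.203e-07 and 0.00114). For Mt1 it was 0.58 ± 0.25, 0.66 ± 0.11 and 0.71 ± 0.23. At 1 month the regions overlapped for both genes, through replicate 1 of Cb. Mt3 went the other way, at -0.55 ± 0.12 and -0.53 ± 0.11 at 1 and 2 months (adjusted p = 0.00118 and 0.000402), under the fold minimum, and at -0.12 ± 0.22 at 3 months.

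Nqo1 was higher in Cb at each age without overlap, by 0.67 ± 0.15, 1.08 ± 0.16 and 0.86 ± 0.19 on the log2 scale. At 3 months it was at 4.94, 4.48 and 6.21 CPM in F/M, against 10.2, 9.86 and 8.56 CPM in Cb. Slc7a11 showed the opposite order, at 3 months with 82.1, 77.7 and 87.7 CPM in F/M against 42.3, 38.0 and 34.2 CPM in Cb. Its difference was -1.21 ± 0.16, -0.79 ± 0.13 and -1.11 ± 0.15 (edgeR adjusted p = 1.474e-05, 2.927e-05 and 2.887e-05), the lowest value among the members at each age. These 2 NRF2 targets thus had reversed regional orders, and Hmox1 differed by -0.05, -0.40 and 0.03 without a call.

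Of the iron genes, Cp alone was called between regions. At 2 months Cp was at 24.1, 20.6 and 20.01 CPM in F/M against 29.8, 35.6 and 34.1 CPM in Cb (0.62 ± 0.10, edgeR adjusted p = 1.54e-05), with smaller differences of 0.12 and 0.25 at 1 and 3 months. Choroid plexus, which makes Cp, also differed there, as its markers summed to 252 to 645 CPM in F/M against 1013 to 1312 CPM in Cb, and its part in the Cp difference was not tested. Fth1 was lower in Cb at 1 month, at -0.43 ± 0.12 (adjusted p = 0.00782), under the fold minimum, and stood at -0.20 and -0.24 at 2 and 3 months. Tfrc differed at 2 months by 0.24 ± 0.07 (adjusted p = 0.00553), under the fold minimum, and Ftl1 by -0.20 to 0.12.

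**Figure D4:**
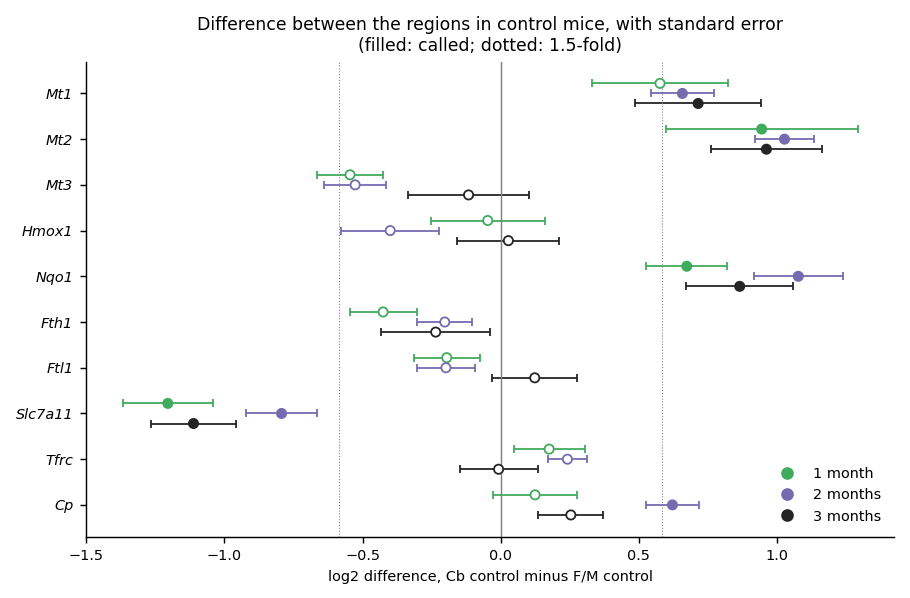
Log2 difference of each member between cerebellum and forebrain/midbrain in control mice at 1, 2 and 3 months, with edgeR standard errors as bars. Mt1, Mt2 and Nqo1 lie above 0 and Slc7a11 lies below 0 at every age.

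Within groups, some members moved together from mouse to mouse. After the mean of each of the 12 groups was removed, log2 CPM of Mt1 and Mt2 had a Pearson r of 0.948 and a Spearman rho of 0.942 over the 36 libraries, with r at 0.983, 0.896 and 0.985 in the 12 libraries of 1, 2 and 3 months. Without the 2 libraries farthest from the median r was 0.936. Mt1 and Slc7a11 moved in opposite senses, with r of -0.853 and rho of -0.836, -0.811 without the 2 farthest, -0.877 in F/M and -0.862 in Cb (18 libraries each). Mice with more Mt1 thus had less Slc7a11 within the same group, as for example Cb control replicate 1 of 1 month, with the lowest Mt1 (84.3 CPM) and the highest Slc7a11 (47.1 CPM) of its group.

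Tfrc also ran against Mt1, with r of -0.777 and rho of -0.755 over the 36 libraries, at -0.821 and -0.842 at 1 and 3 months but -0.345 at 2 months. The ferritin chains ran together, at r of 0.802 and rho of 0.710, with 0.661, 0.607 and 0.942 at 1, 2 and 3 months and 0.699 without the 2 farthest libraries. These values are descriptions with no test. The libraries share handling within a group and the length shift described above, Mt1, Mt2 and Ftl1 are short mRNAs whereas Slc7a11 and Tfrc are long, and the same mouse may have given both regions.

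**Figure D5:**
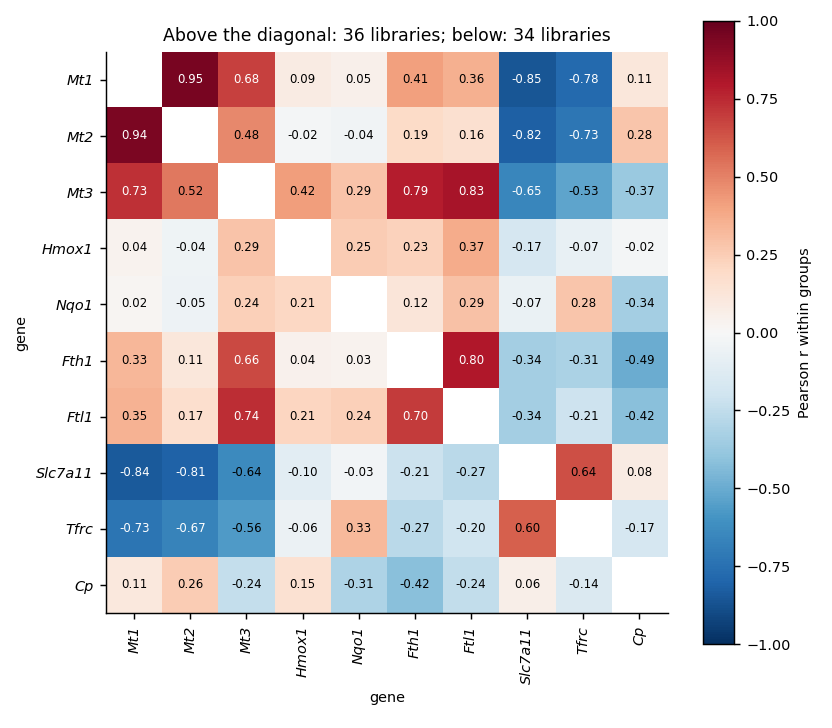
Pearson r of log2 CPM between each pair of members after removal of group means, over all 36 libraries above the diagonal and over the 34 libraries without the 2 length-shifted cerebellar ones below it. Mt1 and Mt2 form the strongest positive pair at 0.948, and Mt1 with Slc7a11 the strongest negative at -0.853.

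Among 14554 genes with at least 1 CPM at each age, those most like each member were listed in the same way. For Mt1 they were Mt2 (r = 0.948), Ramp2 (0.905) and Lfng (0.897), and for Mt2 they were Mt1, Gjb6 (0.932), which encodes an astrocyte connexin, and Sult1a1 (0.921). The genes listed for Mt3 included Lamtor2 (0.960) and the ribosomal protein gene Rps14 (0.957). Fth1 was followed by Clu (0.945), Cst3 (0.944) and Apoe (0.922), which encode abundant secreted proteins. Ftl1 was nearest to Gpx1 (0.914), Hcfc1r1 (0.911) and Itm2b (0.910).

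Slc7a11 was nearest to Frem1 (0.854), Vldlr (0.836) and Nr3c1 (0.818), the last being the glucocorticoid receptor. Tfrc was nearest to Dek (0.883), Abcd2 (0.881) and Slco1a4 (0.877), and Cp to Timp3 (0.814), Minar1 (0.801) and Lifr (0.794). Hmox1 and Nqo1, the members with the fewest counts, had no close companion, with r of at most 0.697 (Rpap2) and 0.650 (Tipin). Without the 2 shifted libraries the r of Cp and Lifr changed most among these pairs, to 0.729.

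Other genes of the same pathways were read against the shares of all genes, of which 0.0112% to 2.05% were called per comparison, so that lists of this size hold few or no calls at those shares. Of 29 tested genes of zinc and copper handling, 0 were called in either direction in any of the 6 comparisons, with a median log2 fold change between -0.021 and 0.011. The same held for 32 to 34 genes of iron and haem handling (-0.014 to 0.094), 34 or 35 genes of the NRF2 pathway (0.008 to 0.108) and 26 or 27 other antioxidant genes (-0.060 to 0.185), against -0.004 to 0.006 for all tested genes. At an unadjusted p under 0.05 edgeR listed 2 to 4, 0 to 6, 0 to 5 and 0 to 8 genes of these lists per comparison, against 1.89% to 16.9% of all tested genes. The 8 antioxidant genes, of 27, and the 5 NRF2 genes, of 34, were those of Cb at 1 month, above the 7.66% of all genes there. limma-voom called none of the genes of these lists, and DESeq2 called only the antioxidant gene Gpx3 in Cb at 2 months, named after its value was seen. Below the fold minimum but with an adjusted p under 0.1 at 2 months in F/M were the zinc transporter gene Slc39a12 (0.40, edgeR adjusted p = 0.0405), the metal reductase gene Steap2 (0.49, 0.0145) and Nfe2l2, which encodes NRF2 (0.31, 0.0763). In Cb the copper importer gene Slc31a1 stood at 0.24 (adjusted p = 0.0747). Of all tested genes, 3.17% in F/M and 3.08% in Cb had an adjusted p under 0.1 at that age, so that the 3 genes and the 1 gene were no more than such shares give. The highest medians of the NRF2 and other antioxidant lists were in Cb at 1 month, the comparison in which Tpp1-/- replicate 1 carried the length shift.

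Among 20 glucocorticoid-responsive genes, chosen because these hormones induce Mt1 and Mt2, 1 fell in Cb at 2 months and 1 rose in Cb at 3 months, where 2.05% and 0.859% of all genes were called. At an unadjusted p under 0.05 edgeR listed 0 to 5 of them per comparison, with 5 in F/M at 2 months, against 16.9% of all genes, and 5 in F/M at 3 months, against 5.94%. Dusp1, a phosphatase of MAP kinases, was at 35.0, 28.2 and 28.6 CPM in controls and 22.8, 16.6 and 19.1 CPM in Tpp1-/- mice, a log2 fold change of -0.64 ± 0.11 (edgeR adjusted p = 0.00115). It was also lower without overlap in F/M at 2 months, at 25.2, 24.3 and 24.5 against 18.9, 16.3 and 18.5 CPM, with a log2 fold change of -0.46 ± 0.11 (edgeR adjusted p = 0.0547), under the fold minimum. Fkbp5, a chaperone of the glucocorticoid receptor, was at 12.6, 13.9 and 15.6 CPM in controls and 26.3, 19.9 and 23.9 CPM in Tpp1-/- mice, a log2 fold change of 0.73 ± 0.13 (adjusted p = 0.0141). Both separated without overlap and were also called by DESeq2 and limma-voom, and DESeq2 alone called Plin4 in F/M at 3 months, named after its value was seen. The medians of this list lay between 0.018 and 0.198.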

How the data were processed

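Total RNA of F/M and Cb was made into stranded mRNA libraries. Per the labels and the file headers, the authors aligned reads to mm10 with STAR 2.5.2b and counted them per gene with featureCounts (1.6.3 at 1 month, 1.6.2 at 2 and 3 months), using GENCODE mouse releases 21, 16 and 18 and strand settings 1, 2 and 1, so that levels are compared within an age. The deposited values are whole-number counts per gene, 10609896 to 29942380 per library. Each age was fitted by itself over its 12 libraries and 4 groups with edgeR 4.0.16 in R 4.3.3 (filterByExpr, TMM scaling, glmQLFit, glmQLFTest, two-sided, Benjamini-Hochberg adjustment over all tested genes). Changes between ages were fitted over all 36 libraries. The thresholds were those of the study. CPM are TMM-scaled, RPKM are CPM per kilobase of exon, and log2 CPM used a prior count of 2. DESeq2 1.42.0, limma 3.58.1 (limma-voom), other scalings and filters, covariates, blocks, a length offset and each library left out were the alternatives. The fit was tested on simulated counts. Same-numbered F/M and Cb libraries deviated together in each of the 3 control pairs of 1 month (r from 0.124 to 0.198), taken from the data and not from the labels. In no other pair of groups did all pairs exceed 0.1. Pairing by mouse was not shown by this, since control and Tpp1-/- libraries of the same number reached an r of 0.229. Sequences came from RefSeq promoters (GRCm38.p6) and GENCODE transcripts.

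The genes named are the 10 members, up to 3 called genes of each list and comparison by the size of their log2 fold change, the 3 genes most like each member within groups, and copies of members, with exceptions said where they occur and with 1 of the genes most like a member not reported here. The members and the lists were chosen with earlier results of these data known.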

Additional observations from a re-analysis of the deposited data

Results flagged for a closer look

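The effect of Tpp1 loss on Fth1 differed between the regions at 2 months, by a test of the difference itself. Its log2 fold change in Cb minus that in F/M was -0.49 ± 0.14 (edgeR adjusted p = 0.0941), from 0.29 in F/M and -0.20 in Cb. Both changed sign with the choroid plexus score (-0.04 and 0.21) or the midbrain and thalamus score (-0.11 and 0.12) as a covariate. Each value with a score was smaller than its error, as given above, so its sign was not settled. Astrocyte markers in F/M (5094 to 6015 CPM in controls, 6335 to 7862 CPM in Tpp1-/- mice) and choroid plexus markers in Cb (1013 to 1312 and 1651 to 1832 CPM) differed between the same groups. The difference passed its test on leaving out only 3 of the 12 libraries of that age.

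Mt3 in Cb had effects of opposite sign at 1 and 2 months, neither of them called. All Tpp1-/- libraries of 1 month lay above their controls (log2 fold change 0.515) and all of 2 months lay below theirs (-0.12). The short minus long transcript measure moved with it, with overlap at 1 month, at -0.173, 0.002 and -0.353 in controls and 0.593, 0.156 and -0.241 in Tpp1-/- libraries of 1 month, and at 0.103, 0.013 and 0.019 against -0.086, -0.066 and 0.004 at 2 months. With the length offset the values were 0.37 and -0.09. Without Cb Tpp1-/- replicate 1, the library with the largest measure, the value of 1 month was 0.40 ± 0.11. The part of transcript length was not tested otherwise. The difference between these 2 ages was not tested, and age, expressed sex and counting set cannot be told apart.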

How the results depend on the processing

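Over the 10 members and 16 comparisons, 160 log2 fold changes were recomputed under 4190 alternatives in all, of which 3930 kept direction and side of the threshold, 204 changed sign with no call in either fit (in 72 of the 160 values), 33 lost a call, 23 gained one and 0 called values changed sign. Members called at 3 months in Cb (1, Hmox1) went to 0 with the 6 libraries of the comparison alone (adjusted p = 0.498), with the sex label as a covariate (0.108) and with the replicate block (log2 fold change 0.75, adjusted p = 0.197), and ranged from 0 to 1 without single libraries. In F/M at 3 months (1, Hmox1) the count went to 0 with the choroid plexus score (adjusted p = 0.1003) or the midbrain and thalamus score (adjusted p = 1.0), and from 0 to 1 without single libraries. With the replicate block the F/M call of Hmox1 held at an adjusted p of 0.0860. The count for Cb at 1 month was 0 to 1 without single libraries (Mt3). For F/M at 2 months it rose from 0 to 1 with the choroid plexus score (Slc7a11) or no fold minimum (Tfrc). The test between regions at 2 months (1, Fth1) gave 0 with library totals, 2 with no filter on low counts (Fth1 and Slc7a11) and 0 to 1 without single libraries. Region differences in controls without the fold minimum rose from 3 to 6 at 1 month, from 5 to 9 at 2 months and from 4 to 5 at 3 months, against 59.4%, 70.1% and 57.8% of all genes. Between ages, Cb from 1 to 3 months ranged from 0 to 2 without single libraries, and F/M from 2 to 3 months gave 1 (Hmox1, 0.94, adjusted p = 0.0811) with the length offset. The causes were not tested.

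Same-numbered control and Tpp1-/- libraries deviated together with r of -0.085 to 0.229, over 0.1 in 6 of 18 pairs, and F/M and Cb of the same number with r of -0.04 to 0.198, over 0.1 in 5 of 18. All 5 were at 1 month and included the 3 control pairs (0.124 to 0.198). Control and Tpp1-/- libraries are different mice and yet reached 0.229. The measure therefore cannot tell whether F/M and Cb of the same number came from 1 mouse, at any age or in either genotype. With F/M and Cb of the same number as a block, 3 members were called between the regions in controls of 1 month, as without it. Control and Tpp1-/- numbers were not shown to pair mice at any age, although Mt1 and Mt2 of 1 month were higher in Tpp1-/- in all 6 pairs of libraries of the same number, and the replicate block cut their Cb errors from 0.24 and 0.34 to 0.11 and 0.10 (adjusted p = 0.435 and 0.437). The replicate block changed no other count of called members, and a block of F/M and Cb taken as the same mouse changed none. Hmox1 and Nqo1 rest on 41 to 281 counts per library, which limits their precision more than that of the other members.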
